A study of Rattus norvegicus with 24 samples.

Results

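The genes described here encode enzymes of cholesterol synthesis and the proteins that switch them on or hold them back. The list has 8 names: Hmgcs1, Idi1, Fdps, Sqle, Cyp51, Dhcr7, Srebf2 and Insig1. Members were the probe sets (sets of short probes for 1 transcript) whose only platform gene symbol is on that list, which gave 10 of the 31042 probe sets that are not controls and 7 of the 8 genes. Hmgcs1 had no probe set of that kind and was not analysed here. Each gene was represented by its brightest probe set, and Idi1, Cyp51 and Srebf2 had a second one.

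Transcripts were measured in thyroids of adult male Sprague-Dawley rats on 24 Affymetrix arrays, with 8 groups of 3 arrays. At day 1 and again at day 14 there were rats on a normal diet with perchlorate in the water, rats on an iodine-deficient diet with normal water, rats given both the diet and perchlorate, and controls with normal diet and water. All groups were housed for 2 months plus the 1 or 14 days, the deficient diet lasted that whole time, and perchlorate was given for the 1 or 14 days at 95 mg potassium perchlorate in each liter. The study's design text asks what the diet and what perchlorate changed in the gland. The labels do not say that each array came from its own animal, so each p-value below reflects no more than how far apart these samples lie, and part of that spread may be technical.

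Cells make cholesterol from acetyl-CoA through mevalonate, the isoprenoid diphosphates, squalene and lanosterol. SREBP2, the product of Srebf2, is a transcription factor held in the endoplasmic reticulum by its escort SCAP and by INSIG proteins while sterols are plentiful. When sterols run low it is carried to the Golgi, cut by proteases and sent to the nucleus, where it raises transcription of nearly every enzyme of the pathway and of Insig1 as a feedback brake. In the thyroid follicle the same route supplies membrane for growing cells and isoprenoids for protein lipidation and for dolichol, which carries the sugars attached to thyroglobulin.

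Values are log2(intensity + 16), normalised between arrays, and a level is not compared from one probe set to another. Fold changes are differences of group means on that scale, and SE is the standard error of such a difference. Of the 31042 probe sets, the 18625 above the 40th percentile of mean level were tested with limma, and a probe set was called at a Benjamini-Hochberg adjusted p under 0.05. The thyroid label was checked against thyroglobulin, whose transcript Tg ran from 13.48 to 13.98 over the 24 arrays, at percentile 99.9 of all probe sets. The mean level of the 8 follicular markers tested ran from 11.88 to 12.32. Arrays differed far more in the mean level of muscle markers (6.19 to 11.39), lymphocyte markers (6.28 to 11.27) and adipocyte markers (6.80 to 11.16), and markers of C cells and of parathyroid were also present. Because whole glands were measured, fewer cells of a type and less RNA per cell cannot be told apart in any result below.

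A pair of arrays stood apart from the rest. The median absolute deviation of an array from the other arrays' median level was 0.675 for perchlorate day 1 replicate 18 and 0.287 for control day 1 replicate 22, against 0.130 to 0.211 for the other 22. One of these arrays held the highest or the lowest of the 24 values in 6 of the 7 genes, and many of the member differences that move with them are given with and without them.

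SREBP2 acts by binding promoters, so promoter sequences are shown for the measured genes that hold a match to its core element or to that of its partner NF-Y. RefSeq's promoter table (build GRCr8, 250 bases before to 50 after each start) held 7 of the 8 genes, all but Sqle. The sterol regulatory element core CACNCCAC, searched on both strands, was found in 1940 of 33469 promoters (5.8%) and in 1 of the 7, Insig1, where it occurred 2 times, on the strand opposite to the one printed. The NF-Y box ATTGG, bound by that partner, was found in 37.5% of all promoters and in 5 of the 7 (Hmgcs1, Idi1, Fdps, Srebf2 and Insig1). The E-box CACGTG stood in 6.42% of promoters and again in Insig1 alone of the 7, and the Sp1 box GGGCGG in 33.1% and in 6 of the 7, all but Idi1. Matches to the first and second motif did not overlap in these windows, and a match is a description of letters only. In the sequences below, written 5′ to 3′ on the strand of the gene, capitals mark the sterol element core and the NF-Y box on either strand.
Insig1, chr4:8057720-8058019, minus strand: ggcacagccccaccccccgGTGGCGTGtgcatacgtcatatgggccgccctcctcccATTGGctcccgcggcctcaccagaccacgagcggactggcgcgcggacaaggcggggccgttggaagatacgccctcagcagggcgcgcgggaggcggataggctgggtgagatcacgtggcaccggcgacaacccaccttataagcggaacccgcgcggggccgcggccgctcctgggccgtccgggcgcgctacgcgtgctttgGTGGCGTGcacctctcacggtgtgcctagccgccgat
Srebf2, chr7:115543057-115543356, plus strand: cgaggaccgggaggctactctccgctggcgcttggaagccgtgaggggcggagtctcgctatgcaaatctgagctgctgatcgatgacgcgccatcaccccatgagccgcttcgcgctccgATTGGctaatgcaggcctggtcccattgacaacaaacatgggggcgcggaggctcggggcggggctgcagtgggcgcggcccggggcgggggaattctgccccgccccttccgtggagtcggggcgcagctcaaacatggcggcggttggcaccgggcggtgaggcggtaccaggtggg
Idi1, chr17:66547475-66547774, minus strand: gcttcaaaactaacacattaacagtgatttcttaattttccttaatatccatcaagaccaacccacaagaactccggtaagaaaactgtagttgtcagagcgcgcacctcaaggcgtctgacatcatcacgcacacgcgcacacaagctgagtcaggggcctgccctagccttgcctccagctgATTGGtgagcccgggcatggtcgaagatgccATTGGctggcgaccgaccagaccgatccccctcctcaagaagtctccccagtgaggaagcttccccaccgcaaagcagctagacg
Fdps, chr2:176804767-176805066, minus strand: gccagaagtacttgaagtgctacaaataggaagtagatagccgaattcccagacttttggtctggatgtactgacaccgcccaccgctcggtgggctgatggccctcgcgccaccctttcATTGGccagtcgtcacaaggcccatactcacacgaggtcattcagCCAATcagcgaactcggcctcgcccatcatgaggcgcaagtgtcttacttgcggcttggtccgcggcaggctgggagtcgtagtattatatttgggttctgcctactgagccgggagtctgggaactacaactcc

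With all arrays, none of the 7 genes was called in any of the 19 comparisons, which did not cover every pair of groups. Over these there were 133 tests of a member, of which 0 passed at an adjusted p under 0.05 by limma. Of the 133 tests, 9 had an unadjusted p under 0.05, and the lowest adjusted p was 0.11. Of all probe-set tests in these comparisons, 10.3% had an unadjusted p under 0.05. In the test of any difference among the 8 groups 0 of 7 were called, with adjusted p from 0.223 (Idi1) to 0.798 (Sqle), where 7.80% of all tested probe sets were called. Across the 133 tests the 95% intervals of the log2 differences lay between -1.29 and 1.13. Each interval is for 1 test taken singly and was not widened for the number of tests.

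Against the control of the same day, the count of called members was 0 in each of 6 comparisons, and the share called among all tested probe sets is needed to read that. At day 1 the share was 0% for perchlorate, 0.0537% for the deficient diet and 0.601% for both together. At day 14 it was 3.57% for perchlorate, 0.220% for the diet and 8.85% for both. A count of 0 of 7 lies near each of these shares, so it does not set the members apart from the rest of the array.

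The comparisons between treatments and between days also gave 0 of 7 called. Adding perchlorate to the diet called 0.00537% of all probe sets at day 1 and 0.209% at day 14, and adding the diet to perchlorate called 3.66% at day 1 and 0.00537% at day 14. The interaction of diet and perchlorate called 0.0107% at day 1 and 0.0161% at day 14. Day 14 against day 1 called 5.17% with perchlorate, 0.00537% with the diet, 1.83% with both and 0% in controls. The change of an effect between days called 0.553% for perchlorate, 0% for the diet and 0% for both. The members' interactions ran from -0.55 to 0.03 at day 1 and from -0.38 to 0.26 at day 14. Their changes of effect ran from -0.53 to 0.20 for perchlorate and from -0.33 to 0.09 for the diet. For both treatments they ran from -0.13 to 0.49. Without the pair of arrays that stood apart, the largest in size were 0.61 (Cyp51, change for both), -0.59 (Fdps, interaction at day 1) and -0.57 (Fdps, change for perchlorate). Member differences with an unadjusted p under 0.05 by limma are described gene by gene below.

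The median difference of the 7 members was small in the same comparisons. It was 0.18 for perchlorate, -0.12 for the diet and -0.11 for both at day 1, where the medians over all tested probe sets were -0.02, 0.00 and -0.01. It was -0.08, -0.12 and -0.05 at day 14 in that order of treatments, beside -0.04, -0.02 and -0.06 for all. With all arrays, 5 of 7 differences from control were positive for perchlorate at day 1, 3 for the diet and 2 for both, and at day 14 the counts were 3, 1 and 3. Without the pair of arrays that stood apart the day 1 counts were 7, 7 and 2, with differences from 0.08 to 0.38 for perchlorate, from 0.03 to 0.40 for the diet and from -0.35 to 0.29 for both, and 0 of 7 called in each. The medians were then 0.16, 0.05 and -0.13, so the median of the diet at day 1 changed sign. At day 14 the counts were the same as with all arrays. These counts depend on how arrays are scaled: on the deposited scale they became 5, 4 and 4 at day 1 and 4, 5 and 3 at day 14, where the median of all probe sets itself reached 0.20 for both treatments at day 1.

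**Figure D1:**
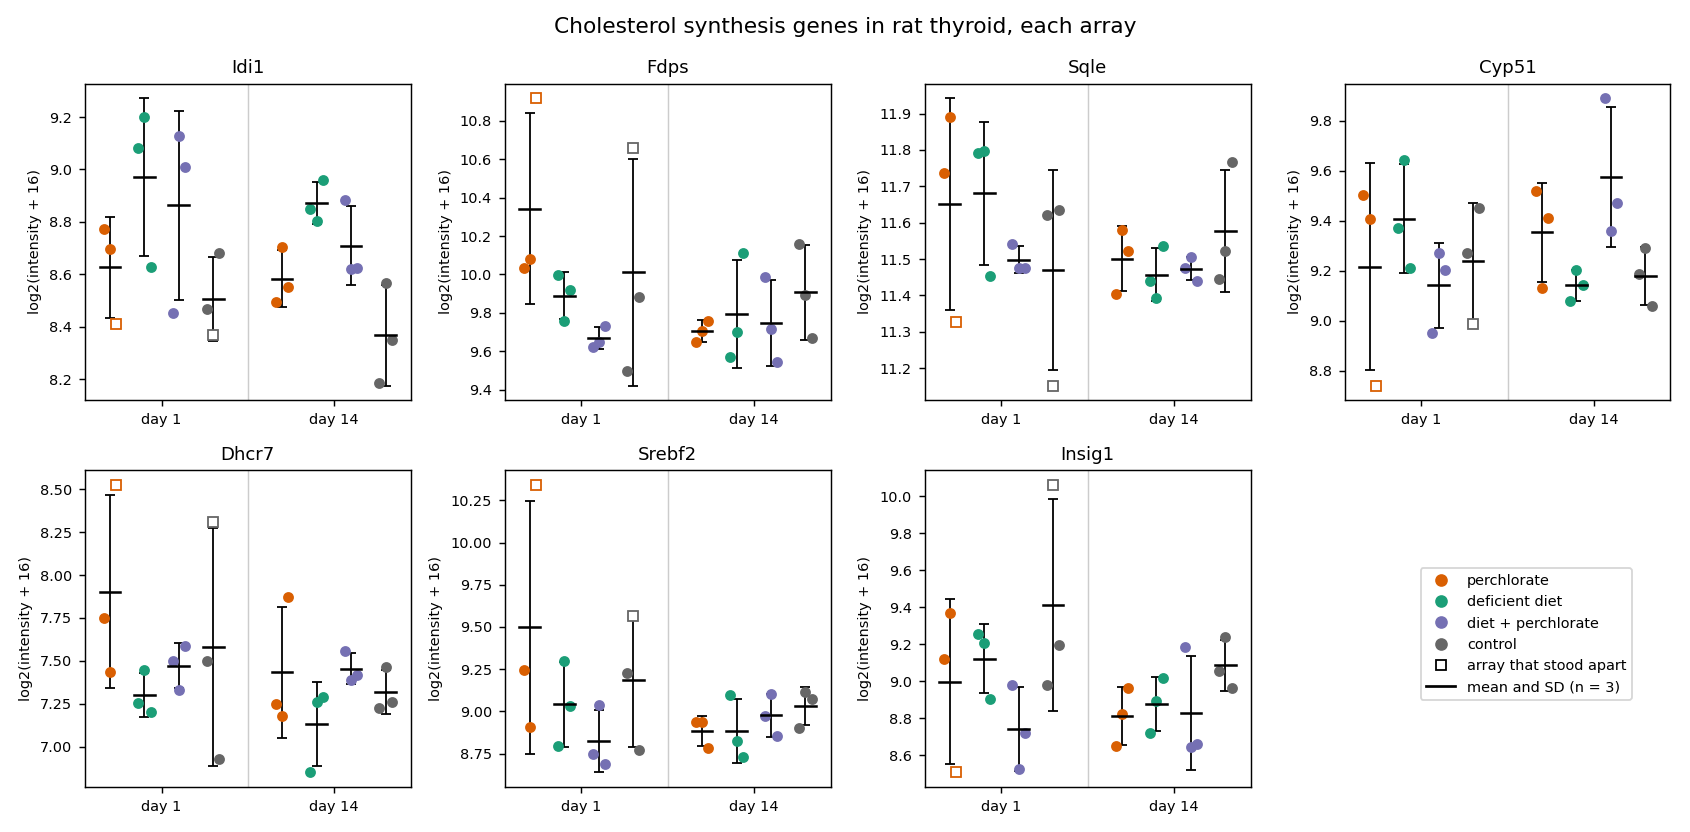
Level of each gene's brightest probe set, log2(intensity + 16), on the vertical axis of each panel, in perchlorate, deficient diet, diet with perchlorate and control thyroids from left to right at day 1 and day 14. Points are arrays, bars the mean and SD (n = 3), and open squares the arrays that stood apart, which hold the extreme values of Fdps (10.92), Srebf2 (10.34) and Insig1 (10.06).

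Idi1, isopentenyl diphosphate isomerase, interconverts the 5-carbon building blocks from which all isoprenoids and sterols are made, and it had the lowest adjusted p of the 7 in the test over 8 groups. At day 1 it read 8.77, 8.70 and 8.41 on perchlorate arrays, 9.08, 9.20 and 8.63 on diet arrays, 8.45, 9.13 and 9.01 on arrays of both treatments, and 8.47, 8.37 and 8.68 on control arrays. At day 14 it read 8.49, 8.70 and 8.55 with perchlorate, 8.85, 8.80 and 8.96 with the diet, 8.88, 8.62 and 8.62 with both, and 8.19, 8.57 and 8.35 in controls. The 4 groups on the deficient diet held the 4 highest of the 8 group means, from 8.97 ± 0.30 (diet, day 1) to 8.71 ± 0.15 (both, day 14), above 8.63 ± 0.19 (perchlorate, day 1), the highest of the normal-diet groups (SD, n = 3 each). The 8 means spanned 0.60, and each neighbouring pair in that order differed by less than the pooled SD of 0.21.

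The diet arrays of day 14 lay above all control arrays, with a difference of 0.50 (SE 0.18, adjusted p = 0.31 by limma), and at day 1 the difference was 0.47 (SE 0.18, adjusted p = 0.721) with overlap. These diet differences were 0.50 (adjusted p = 0.137) and 0.40 (adjusted p = 0.642) by limma without the arrays that stood apart. With both treatments the difference from control was 0.34 at day 14 (adjusted p = 0.298), again with no overlap, and 0.36 at day 1 (adjusted p = 0.505). For comparison, 10.6% of all tested probe sets were higher with no overlap for the diet at day 14, and 16.2% for both treatments. None of these single comparisons passed the test.

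The effect of the diet averaged over both waters and both days was added after these values were seen, so it is a description of a pattern already visible. The 12 arrays of the deficient diet ran from 8.45 to 9.20 with a median of 8.87, and the 12 of the normal diet from 8.19 to 8.77 with a median of 8.52. Of the 12 diet arrays, 8 lay above every normal-diet array. The averaged difference was 0.33 (SE 0.09, 95% interval 0.14 to 0.52), which is 1.26-fold, with an adjusted p of 0.0402 by limma, and Idi1 was the 1 member of 7 called where 4.78% of all tested probe sets were called. The call was not firm: it was lost in 16 of 24 fits that left out 1 array, with adjusted p from 0.0104 to 0.0802, and without both arrays that stood apart the difference was 0.29 (adjusted p = 0.0521). Those 16 arrays were, at day 1, replicates 8 and 9 of the diet, 3 and 6 of both treatments, and 21 and 22 of the controls. At day 14 they were replicates 39, 40 and 42 of perchlorate, 32, 33 and 34 of the diet, 27 and 30 of both, and 43 and 47 of the controls. The value kept its sign in all 24 fits, between 0.30 and 0.38.

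The second, dimmer Idi1 probe set correlated with the first at r = 0.70 over the 24 arrays. It differed by 0.67 for the diet at day 1 (adjusted p = 0.615) and by 0.35 at day 14 (adjusted p = 0.747), and the averaged diet difference was 0.29 (adjusted p = 0.168). At day 14 it did not follow the first with both treatments, where its difference from control was -0.05. For perchlorate the averaged difference in Idi1 was 0.02 (95% interval -0.18 to 0.21).

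**Figure D2:**
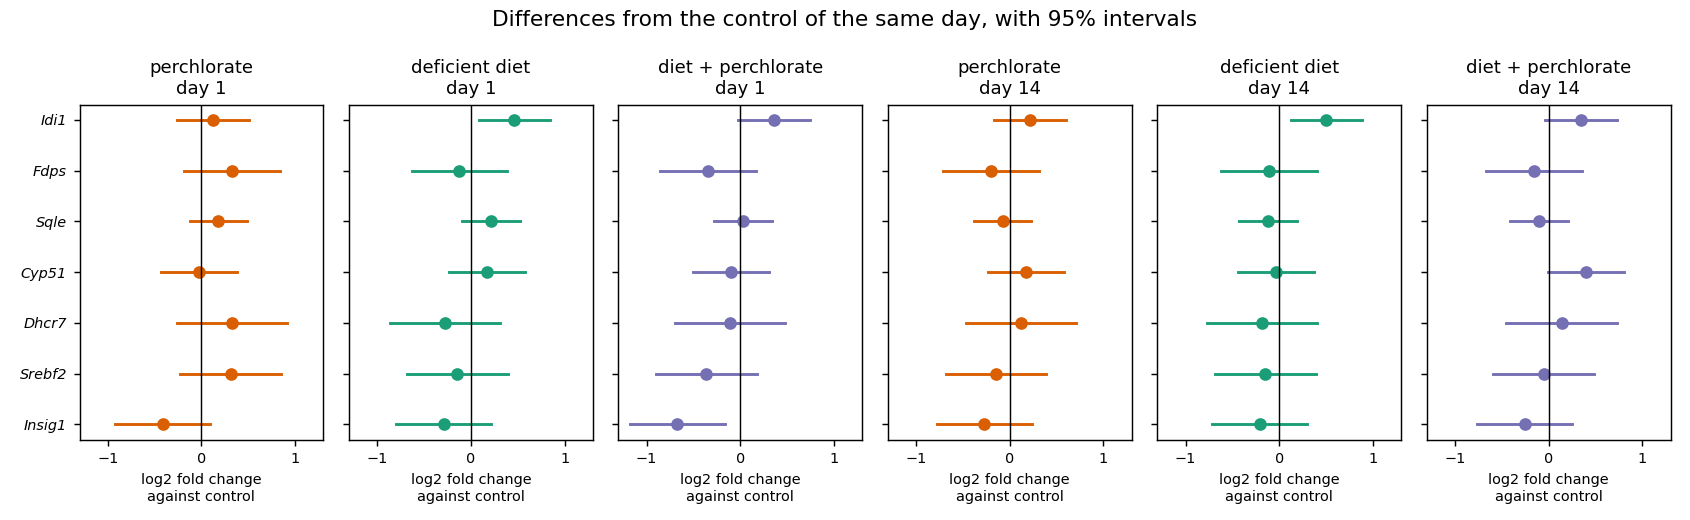
Log2 fold change (horizontal axis) of each gene against the control of the same day for perchlorate, the deficient diet and both, at day 1 and day 14, with 95% intervals from limma. The intervals that do not reach 0 are those of Idi1 for the diet on both days (0.47 and 0.50) and of Insig1 for both treatments at day 1 (-0.67), and none of the 3 passed after adjustment.

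Fdps, farnesyl diphosphate synthase, joins the 5-carbon units into the farnesyl group at the branch between sterols and other isoprenoids. It read 10.03, 10.08 and 10.92 on perchlorate arrays at day 1, 9.997, 9.76 and 9.92 on diet arrays, 9.62, 9.65 and 9.73 with both treatments, and 9.50, 10.66 and 9.88 in controls. At day 14 all 12 arrays lay between 9.54 and 10.16. The arrays of both treatments at day 1 lay below all diet arrays of that day, by 0.22 on average (log2 difference -0.22, adjusted p = 0.999), where 8.05% of probe sets were lower with no overlap. The 2 highest readings, 10.92 and 10.66, were those of perchlorate replicate 18 and control replicate 22, and the highest of the other 22 arrays was 10.16. Differences of Fdps from control at day 1 were 0.33 for perchlorate, -0.12 for the diet and -0.34 for both. Without those 2 arrays they were 0.37, 0.20 and -0.02, so that of the diet changed sign.

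The comparisons of Fdps that came closest to the threshold both use perchlorate at day 1. The diet added to perchlorate differed from perchlorate alone at day 1 by -0.68 (SE 0.25, adjusted p = 0.11), with no overlap, where 8.48% of all probe sets were lower with no overlap. Perchlorate at day 14 differed from perchlorate at day 1 by -0.64 (SE 0.25, adjusted p = 0.129), also with no overlap, where 8.28% were lower with no overlap. Without the pair of arrays that stood apart, the differences were -0.39 (adjusted p = 0.218) and -0.35 (adjusted p = 0.28). Leaving out perchlorate day 1 replicate 15 instead, which gives replicate 18 more weight, made both calls, at -0.83 (adjusted p = 0.0439) and -0.79 (adjusted p = 0.0465). In that fit 2743 and 3319 probe sets were called in these comparisons, against 682 and 962 with all arrays.

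Sqle, squalene epoxidase, puts the first oxygen onto squalene and is a control point of the sterol branch. Its 8 group means spanned 0.22, the smallest span of the 7 on all arrays, and 0.36 without the pair that stood apart. All 24 arrays lay between 11.15 and 11.89, and the group means between 11.46 ± 0.07 (diet, day 14) and 11.68 ± 0.20 (diet, day 1; SD, n = 3 each). Against control its differences ran from -0.12 (diet, day 14) to 0.21 (diet, day 1), with 95% intervals that together reached from -0.43 to 0.52. Without the arrays that stood apart, the diet difference at day 1 was 0.05, and the differences ran from -0.13 (both, day 1) to 0.18 (perchlorate, day 1). There, the diet added to perchlorate differed from perchlorate alone at day 1 by -0.31 (adjusted p = 0.124 by limma). Perchlorate at day 14 differed from day 1 by -0.31 (adjusted p = 0.119 by limma). The lowest Sqle readings, 11.33 and 11.15, were those of perchlorate replicate 18 and control replicate 22 of day 1.

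Cyp51, the lanosterol demethylase, is the cytochrome P450 that begins the conversion of lanosterol towards cholesterol. At day 14 it read 9.52, 9.13 and 9.41 on perchlorate arrays, 9.08, 9.20 and 9.14 on diet arrays, 9.89, 9.36 and 9.47 with both treatments, and 9.19, 9.29 and 9.06 in controls. The 3 arrays of both treatments lay above all diet arrays and all control arrays of that day. The difference was 0.43 from the diet alone (SE 0.20, adjusted p = 0.589) and 0.39 from control (SE 0.20, adjusted p = 0.246), so neither passed the test. They were again 0.43 (adjusted p = 0.166) and 0.39 (adjusted p = 0.0696) by limma without the arrays that stood apart, and neither passed. Without overlap and higher, there were 11.7% of all probe sets in the first of these comparisons and 16.2% in the second.

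The second Cyp51 probe set gave nearly the same differences at day 14, 0.43 from the diet alone (adjusted p = 0.649) and 0.42 from control (adjusted p = 0.278). It correlated with the brighter one at r = 0.62 over the 24 arrays. At day 1 the brighter probe set of Cyp51 read 9.50, 9.41 and 8.74 with perchlorate, 9.37, 9.64 and 9.21 with the diet, 8.95, 9.27 and 9.20 with both, and 9.27, 8.99 and 9.45 in controls, with all groups overlapping the controls. Between day 14 and day 1, the arrays of both treatments differed by 0.43 with no overlap (adjusted p = 0.273), where 14.4% of probe sets were higher with no overlap. That difference was again 0.43 (adjusted p = 0.0691 by limma) without the arrays that stood apart. Diet arrays of day 14 lay below those of day 1 in Cyp51, with a difference of -0.27 (adjusted p = 1), where 7.33% were lower with no overlap.

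Dhcr7, 7-dehydrocholesterol reductase, carries out the last step of one route to cholesterol. Its group means ran from 7.13 ± 0.25 (diet, day 14) to 7.90 ± 0.56 (perchlorate, day 1; SD, n = 3 each), a span of 0.77, or 0.46 without the pair of arrays that stood apart. Those arrays read 8.53 and 8.31, against 6.85 to 7.87 on the other 22. Of its differences from control, the largest in size were 0.33 for perchlorate at day 1 (adjusted p = 0.655) and -0.28 for the diet at day 1 (adjusted p = 0.98). Without the arrays that stood apart, the difference was 0.38 for perchlorate and 0.09 for the diet at day 1, so the second changed sign. That for both treatments at day 1 also changed sign, from -0.11 on all arrays to 0.26. Dhcr7 arrays of both treatments at day 14 lay above all diet arrays of that day, by 0.32 on average (adjusted p = 0.891). Of all tested probe sets, 11.7% were higher with no overlap in that comparison.

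Srebf2 encodes SREBP2 itself, whose activity is set mainly by cleavage of the protein, which transcript levels do not show. It read 9.24, 8.91 and 10.34 on perchlorate arrays at day 1, 8.80, 9.30 and 9.03 on diet arrays, 8.75, 9.03 and 8.69 with both treatments, and 9.23, 9.56 and 8.77 in controls. At day 14 the 12 arrays lay between 8.73 and 9.11, and every pair of groups overlapped. The 8 group means spanned 0.68 with all arrays and 0.25 without the pair that stood apart. Differences of Srebf2 from control at day 1 were 0.31 for perchlorate, -0.15 for the diet and -0.36 for both. Without that pair they were 0.08, 0.04 and -0.17, so that of the diet changed sign. Its second probe set averaged 4.47 and was below the filter on low levels.

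The diet added to perchlorate differed from perchlorate alone at day 1 by -0.68 in Srebf2 (SE 0.26, adjusted p = 0.126), and perchlorate at day 14 from day 1 by -0.61 (SE 0.26, adjusted p = 0.16), both with overlap. Without the arrays that stood apart these were -0.25 (adjusted p = 0.457) and -0.19 (adjusted p = 0.619). Leaving out perchlorate day 1 replicate 16 instead gave -0.97 (adjusted p = 0.0232) and -0.91 (adjusted p = 0.0314). Over the fits that left out 1 array, 145 to 2743 probe sets were called in the first comparison and 273 to 3319 in the second. With all arrays, in the comparison of the diet added to perchlorate at day 1, the other members differed by between -0.68 (Fdps) and 0.24 (Idi1). Lymphocyte markers, of which 3 of 11 were tested, were high on part of the perchlorate arrays of day 1, where their mean level was 11.27 (replicate 15), 6.84 (replicate 16) and 10.18 (replicate 18), against 6.41 to 7.48 on the other 9 arrays of that day. That mean correlated with Srebf2 at r = 0.49 over 24 arrays and 0.35 over 22, and with Fdps at 0.27 and -0.02. Their part in the differences of Srebf2 and Fdps was not tested.

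Insig1 encodes the retention protein that keeps SREBP2 and its escort in the endoplasmic reticulum, and its own transcript is raised by SREBP2. It read 9.12, 9.37 and 8.51 on perchlorate arrays at day 1, 9.25, 9.21 and 8.91 on diet arrays, 8.98, 8.53 and 8.72 with both treatments, and 8.98, 10.06 and 9.20 in controls. At day 14 it read 8.65, 8.82 and 8.96 with perchlorate, 8.72, 8.89 and 9.02 with the diet, 9.18, 8.64 and 8.66 with both, and 9.06, 9.24 and 8.97 in controls. With all arrays the 6 differences of Insig1 from control were negative and the 6 of Idi1 positive, and none of either passed the test. Without the arrays that stood apart 2 of those of Insig1 were positive, both at day 1, while those of Idi1 were still positive.

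The largest in size was that of both treatments at day 1, -0.67 (SE 0.24, adjusted p = 0.284), where 9.76% of all probe sets were lower with no overlap. It was -0.35 (adjusted p = 0.351) without the arrays that stood apart, since control replicate 22 held the highest Insig1 reading of all. For perchlorate at day 1 the sign itself turned on those arrays, with -0.42 on all arrays and 0.15 without them (-0.29 and 0.03 for the diet), and it changed in 2 of the 17 alternatives run for that value. At day 14 the perchlorate arrays lay below all control arrays, by 0.27 on average (log2 difference -0.27, adjusted p = 0.739), where 13.4% of probe sets were lower with no overlap.

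Adipocyte markers moved with Insig1. Their mean level, over the 10 of 12 markers tested, correlated with Insig1 at r = 0.63 over 24 arrays and at 0.79 over the 22 without the arrays that stood apart, and arrays of one group share treatment and day. Adipocyte levels ran from 6.80 to 9.80 with both treatments at day 1 and from 9.55 to 11.16 in controls of that day, and 0 of the 10 markers were called in that comparison. Their part in the Insig1 differences was not tested. The correlation of Fdps with adipocyte markers was 0.61 over 24 arrays and 0.42 over 22.

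Cell cycle markers moved with Idi1 and Cyp51. Over 24 arrays the mean of the 12 markers correlated with Idi1 at r = 0.55 and with Cyp51 at 0.61, and over 22 arrays at 0.51 and 0.59. At day 14 that mean ran from 8.57 to 8.82 with perchlorate, from 8.37 to 8.67 with the diet, from 8.84 to 9.46 with both, and from 7.20 to 7.68 in controls. Of the 12 cell cycle markers, 6 rose with perchlorate at day 14 and 10 with both treatments, and 0 were called for the diet alone. Their part in the differences of Idi1 and Cyp51 was not tested.

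The genes did not vary together across arrays in a stable way. Over 24 arrays the strongest correlations were those of Fdps with Dhcr7 (r = 0.69), Srebf2 with Dhcr7 (0.69) and Fdps with Srebf2 (0.66). Without the pair of arrays that stood apart, they were 0.07, 0.06 and -0.16. Other pairs came up in their place. Insig1 correlated with Sqle at 0.66 on the 22 arrays and 0.11 on all, and with Fdps at 0.65 on the 22 and 0.39 on all. Each is a description over arrays that share groups and preparation.

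**Figure D3:**
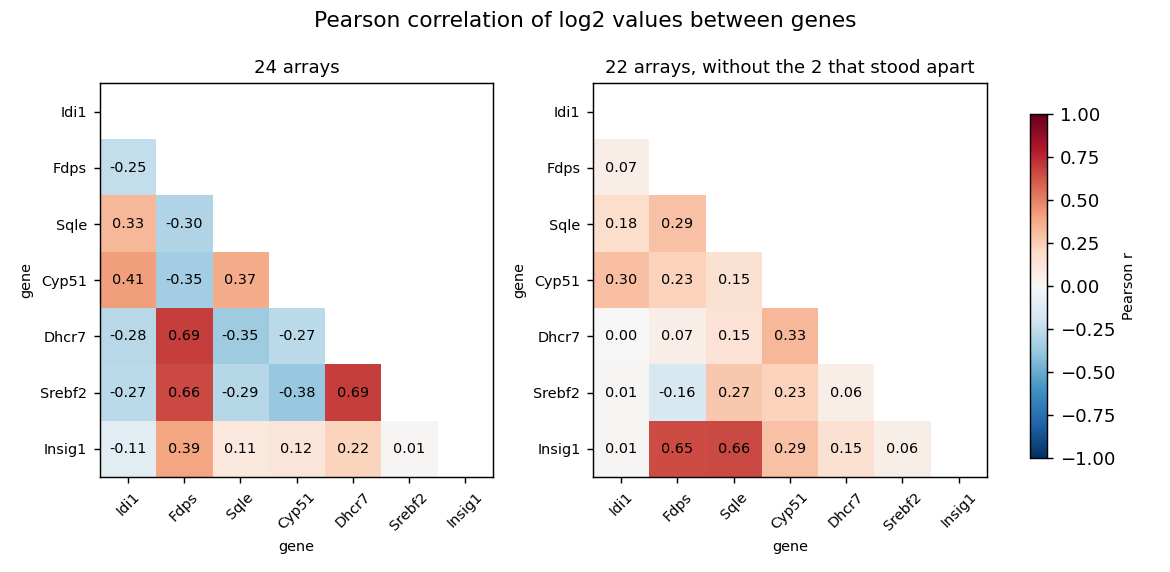
Pearson correlation of log2 levels between genes (rows and columns) over all 24 arrays at left and over the 22 without the pair that stood apart at right. The block of Fdps, Srebf2 and Dhcr7 (0.66 to 0.69) is present at left and absent at right (-0.16 to 0.07), where Insig1 correlates with Sqle (0.66) and Fdps (0.65).

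Outside the list, the genes whose levels were most like the mean of the 7 standardised members over 24 arrays were Erp29 (r = 0.69), Capns1 (0.69), Mcm2 (0.68), Dmtn (0.66), Pank2 (0.65) and Arhgef18 (0.65). Over 22 arrays they were Hnrnpd (0.72), Tubg1 (0.70), Edem2 (0.69), Bcl2 (0.68), Erp29 (0.68) and Mcm2 (0.67). Erp29, a chaperone of the endoplasmic reticulum, and Mcm2, a replication factor that is also on the cell cycle list, were the 2 named both times.

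No other enzyme of sterol synthesis that was tested was called. Of 18 names on that list 14 were tested, and 0 of the 14 were called in any of the comparisons. Their median difference from control at day 14 was -0.26 with perchlorate, -0.13 with the diet and -0.25 with both, beside -0.04, -0.02 and -0.06 over all tested probe sets. At day 1 the medians were 0.14, -0.11 and -0.13 in that order.

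Of the 17 genes tested that control SREBP2 or take up cholesterol, 1 rose with perchlorate at day 14 and the same gene, Stard4, rose with both treatments. Of all tested probe sets, 3.57% were called in the first of these comparisons and 8.85% in the second. Stard4 encodes a small protein that moves sterol between membranes and is itself a target of SREBP2. At day 14 it read 7.99, 7.98 and 8.39 on perchlorate arrays, 8.10, 8.27 and 7.65 on diet arrays, 8.48, 8.41 and 8.38 with both treatments, and 7.09, 7.47 and 7.35 in controls. Every diet array and every array of both treatments lay above every control array. Of all tested probe sets, 10.6% were higher than control with no overlap for the diet at day 14 and 16.2% for both treatments. The difference from control was 1.12 with both treatments (SE 0.22, 95% interval 0.66 to 1.58, adjusted p = 0.00249 by limma), which is 2.17-fold. It was 0.82 with perchlorate (SE 0.22, adjusted p = 0.041) and 0.71 with the diet (SE 0.22, adjusted p = 0.211).

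At day 1 the Stard4 differences were 0.13 for perchlorate, 0.27 for the diet and 0.74 for both, and none was called. The call for both treatments at day 14 held in all 16 alternatives tried for it, with adjusted p up to 0.0238. That for perchlorate was lost in each of the 6 fits that left out 1 array of the groups compared, with adjusted p from 0.0619 to 0.23. A dimmer Stard4 probe set differed by 0.55 with both treatments (adjusted p = 0.359) and by 0.51 with perchlorate (adjusted p = 0.573), so it was not called. The 7 members differed from control by between -0.26 and 0.39 where Stard4 differed by 1.12. In the averaged comparisons added later, Stard4 was called for the diet (0.47, adjusted p = 0.0179) and for perchlorate (0.46, adjusted p = 0.0227), and in the second of these 3.20% of all probe sets were called. The dimmer probe set differed by 0.09 for the diet (adjusted p = 0.795) and by 0.33 for perchlorate (adjusted p = 0.311) in those comparisons.

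Endothelial markers moved with Stard4, at r = 0.87 over 24 arrays. Their mean level at day 14, over 7 of 9 markers tested, ran from 10.87 to 11.39 with perchlorate, from 10.57 to 10.94 with the diet, from 11.31 to 11.41 with both, and from 9.71 to 10.12 in controls. Of the 7 endothelial markers, 4 rose with perchlorate at day 14 and 6 with both treatments. Stard4 also correlated with the cell cycle markers at 0.79, and the part of either in its rise was not tested.

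Mylip, a ubiquitin ligase that limits the uptake of cholesterol by cells, was called in 2 of the 19 comparisons, both of them against perchlorate at day 1. It read 11.45, 11.78 and 11.78 with both treatments at day 1 and 11.79, 11.67 and 11.97 with perchlorate at day 14, against 10.86, 10.99 and 10.32 with perchlorate at day 1. The differences were 0.95 (SE 0.20, adjusted p = 0.017) and 1.09 (SE 0.20, adjusted p = 0.00294). Of all tested probe sets, 3.66% were called in the first of these comparisons and 5.17% in the second. Against control, the Mylip differences at day 14 were 0.61 with perchlorate (adjusted p = 0.105) and 0.41 with both (adjusted p = 0.234). The call at day 1 was lost without perchlorate replicate 18 (0.74, adjusted p = 0.0595), and also when leaving out replicate 3 (0.89, adjusted p = 0.0634) or replicate 6 (0.89, adjusted p = 0.0533) of both treatments. With only the groups compared in the fit neither call passed, at an adjusted p of 0.687 for the first and 0.148 for the second, and the second passed in the other 10 alternatives and with each of 6 arrays left out.

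Endothelial and adipocyte markers moved with Mylip, at r = 0.66 and -0.63 over 24 arrays. The mean level of endothelial markers ran from 9.70 to 11.14 with both treatments at day 1 and from 10.87 to 11.39 with perchlorate at day 14, against 9.86 to 10.32 with perchlorate at day 1, and 1 and 4 of the 7 rose. Adipocyte markers ran from 6.80 to 9.80 with both treatments at day 1 and from 7.23 to 9.52 with perchlorate at day 14, against 8.97 to 10.79 with perchlorate at day 1, and 0 of 10 were called in each. Their part in the Mylip differences was not tested.

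Thrsp, a nuclear protein that promotes fatty acid synthesis and responds to thyroid hormone, was the 1 of 15 genes tested of SREBP1 and fatty acid synthesis that was called against control. It fell with both treatments at day 14, where it read 11.21, 11.02 and 10.47, against 12.14, 12.54 and 11.83 in controls. The difference was -1.27 (SE 0.35, adjusted p = 0.0257), and all 3 Thrsp probe sets were called. In that comparison 8.85% of all tested probe sets were called. The call was lost without replicate 30 of both treatments (adjusted p = 0.14), and without control replicate 43 (adjusted p = 0.0697) or 44 (adjusted p = 0.121). Adipocyte markers correlated with Thrsp at r = 0.84 and ran from 7.57 to 8.29 with both treatments at day 14 against 8.60 to 9.83 in controls, with 0 of 10 called. Their part in the fall was not tested.

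**Figure D4:**
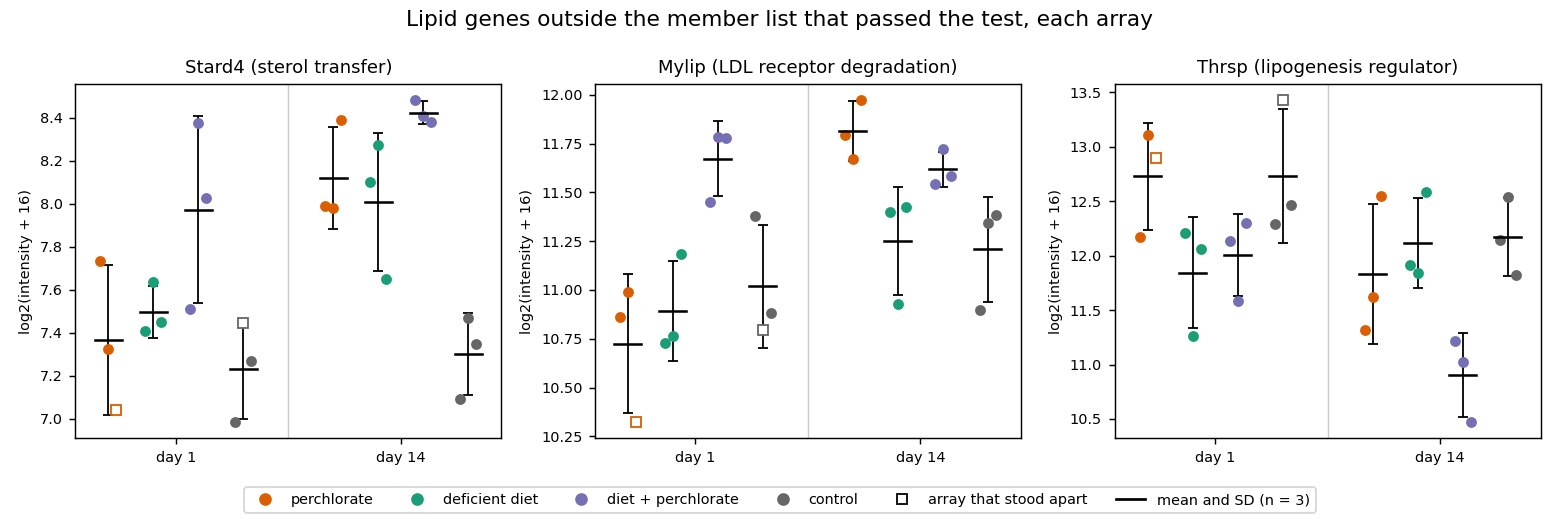
Level of Stard4, Mylip and Thrsp, log2(intensity + 16), on the vertical axis, in perchlorate, deficient diet, diet with perchlorate and control thyroids from left to right at day 1 and day 14. Points are arrays, bars the mean and SD (n = 3), and open squares the arrays that stood apart. The Stard4 readings of day 14 with the diet (7.65 to 8.27) and with both treatments (8.38 to 8.48) lie above the control readings (7.09 to 7.47). Of all tested probe sets, 10.6% were higher with no overlap for the diet and 16.2% for both treatments.

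The remaining lists held few calls. Of the 12 genes tested of the isoprenoid branch, which draws on the product of Fdps, 0 were called against control. Fntb, the beta subunit of protein farnesyltransferase, fell by 1.09 when the diet was added to perchlorate at day 1 (SE 0.28, adjusted p = 0.0377). In that comparison 3.66% of all tested probe sets were called. Of the 13 tested genes of cholesterol efflux, esterification and the LXR receptors, 0 were called against control, and Nr1h2, which encodes LXR beta, fell by 0.70 in the same comparison as Fntb (SE 0.19, adjusted p = 0.0442). Without the arrays that stood apart neither passed, at -0.91 (adjusted p = 0.109) for Fntb and -0.57 (adjusted p = 0.118) for Nr1h2. Both calls were also lost on leaving out replicate 2, 3 or 6 of both treatments, with adjusted p from 0.0554 to 0.123, and with only the groups compared (adjusted p = 0.687 for each). Over 24 arrays Fntb correlated with C cell markers at r = 0.54, with endothelial markers at -0.50 and with adipocyte markers at 0.49. C cell markers ran from 9.73 to 10.14 with both treatments at day 1, against 10.15 to 11.63 with perchlorate. Nr1h2 correlated with adipocyte markers at 0.26 and with follicular markers at -0.24. The lymphocyte markers correlated with Fntb at r = 0.15 and with Nr1h2 at 0.17. The part of these markers in either fall was not tested. In the averaged comparison of perchlorate, Abcg1, an exporter of cholesterol from cells, rose by 0.36 (SE 0.09, adjusted p = 0.0275), and a second probe set for it did not pass (0.34, adjusted p = 0.12). Mylip was also called there (0.36, adjusted p = 0.0467 by limma). In the averaged comparison of the diet, Thrsp fell by 0.65 (adjusted p = 0.0372, all 3 probe sets called) and Fntb by 0.52 (adjusted p = 0.0359). Of all tested probe sets, 3.20% were called for perchlorate and 4.78% for the diet. These averaged calls were not recomputed with arrays left out.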

How the data were processed

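The authors deposited 1 linear intensity per probe set and array, made with GCOS, per the submitters' processing notes. Its version, settings and scaling target are not given in the sources used here, and only the processed value table was used. Of 31099 probe sets, 57 controls were left out. Of the others, 20826 carried 1 symbol in the platform annotation, 436 several and 9780 none, and a gene name was used where there was 1 symbol.

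From these, log2(intensity + 16) was computed and quantile normalised, which understates changes of dim probe sets. A filter at the 40th percentile of mean level was applied. limma 3.58.1 in R 4.3.3 was fitted with 1 mean per group over all 24 arrays (eBayes with a trend, two-sided, Benjamini-Hochberg over all 18625 probe sets of a comparison). The fit was tested on simulated data. The number of arrays limits the precision, and detection calls were not used here.

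Groups and replicate numbers come from the sample titles. The comparisons were the 8 groups together, each treatment against the control of its day, each treatment added to the other, their interaction, and day 14 against day 1. The averaged effects of the diet and of perchlorate were added after the data were seen. Members, gene lists and tests were chosen with earlier results of these data known. Named outside the members were all called genes of the other lists (up to 4 per list and comparison) and the 6 genes most like the members' mean. Alternatives were the scaling, the pseudocount, the filter, the mean over a gene's probe sets, only the groups compared, array weights, and leaving out arrays.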

Additional observations from a re-analysis of the deposited data

How the results depend on the processing

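The member counts were recomputed under 11 alternatives and with each of 24 arrays left out, which gave 455 counts, of which 432 equalled the reported count and 23 did not. The averaged effect of the diet, with 1 member called, had 0 called with no filter, with the mean over a gene's probe sets and without the pair of arrays that stood apart, and 0 to 1 with 1 array left out. The diet added to perchlorate at day 1 and perchlorate at day 14 against day 1, with 0 called, had 0 to 1 with 1 array left out. The 42 member differences from control, recomputed 702 times, were called 0 times. Their sign changed in 41 recomputations, and 23 of the 42 kept their sign throughout. The cause of each change was not tested. The stricter filter left out Dhcr7, and the mean over a gene's probe sets gave no value for Srebf2 or Stard4.

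The number of probe sets called also moved with these choices, and its size cannot be set beside that of the member counts. For both treatments against control at day 14 it was 1649, and 911 (mean over a gene's probe sets) to 4371 (array weights) under alternatives. For perchlorate at day 14 it was 665 (365 to 1762), for the diet at day 14 41 (21 to 915), for both at day 1 112 (19 to 678) and for the diet at day 1 10 (2 to 96). For the diet added to perchlorate at day 1 it was 682 (1 to 2079, with the 1 when only the groups compared were fitted), and for perchlorate at day 14 against day 1 it was 962 (1 to 1568). These ranges do not include the fits that left out 1 array. In those fits the last 2 counts ran from 145 to 2743 and from 273 to 3319. At day 14 they ran from 808 to 1356 for both treatments, from 225 to 551 for perchlorate and from 6 to 21 for the diet. At day 1 they ran from 60 to 142 for both and from 1 to 6 for the diet. The array weights stopped before full convergence.

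No paired analysis was possible because each replicate number occurs once in the series, so the groups compared share none.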
